A study of Mus musculus with 6 samples.

Results

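The 10 genes described here are regulators and markers of mouse spermatogonia, the mitotic germ cells at the base of the seminiferous epithelium, and of the entry into meiosis. They were taken by name from the 26743 genes of the deposited count table, where each name matched 1 gene, and all 10 passed the filter on low counts that left 16924 genes for testing. Zbtb16, Gfra1, Id4, Sall4 and Nanos3 belong to undifferentiated spermatogonia, Kit, Sohlh1, Sohlh2 and Dmrt1 to the differentiation programme, and Stra8 to meiotic entry. Their RNA was sequenced in the whole testis of 3 WT mice and of 3 TRF2-/- mice, all at postnatal day 21, an age at which the first round spermatids have formed. The TRF2-/- mice lack functional TBP-related factor 2, a relative of the TATA-binding protein, in the whole animal. The study names a 129/SvPas background where its methods describe a tagged Trf2 line. Whether this holds for the TRF2-/- mice, and which part of the gene they lack, are not given in the sources used here. Each library holds all cell types of a testis, so fewer cells of a type and less RNA per cell cannot be told apart.

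Spermatogonial stem cells and their early progeny renew themselves under the influence of GDNF, a ligand made by somatic cells and bound by the GFRA1 and RET receptor pair. They become differentiating spermatogonia when retinoic acid acts on them. KIT then appears at the cell surface, SOHLH1 and SOHLH2 switch on genes of differentiation, DMRT1 holds back meiosis until the mitotic divisions are over, and STRA8 opens the meiotic programme.

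Reads counted on genes numbered 21582123 to 29859347 in WT and 15187062 to 24530489 in TRF2-/- mice, the lowest total being that of TRF2-/- mouse 3. Tbpl1, which encodes TRF2, stood at 308, 283 and 294 CPM (counts per 1000000 reads of TMM-scaled library size) in WT mice 1 to 3 and at 62.9, 64.3 and 55.8 CPM in TRF2-/- mice 1 to 3. All 8 general germ cell genes and 11 of 12 Sertoli cell genes on lists of markers were found and tested. Passing a filter on low counts cannot by itself tell 1 tissue from another, so this is no test of the tissue label.

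The 10 genes lie on 8 chromosomes of the genome build NCBIM37 and each is annotated as protein coding. Zbtb16 (ENSMUSG00000066687) lies on the minus strand at chr9:48462416-48644050, Gfra1 (ENSMUSG00000025089) on the minus strand at chr19:58310094-58530399 and Id4 (ENSMUSG00000021379) on the plus strand at chr13:48356796-48359405. Sall4 (ENSMUSG00000027547) lies on the minus strand at chr2:168573832-168593443 and Nanos3 (ENSMUSG00000056155) on the minus strand at chr8:86697632-86700451. Kit (ENSMUSG00000005672) is on the plus strand at chr5:75970941-76052747, Sohlh1 (ENSMUSG00000059625) on the minus strand at chr2:25698515-25702768 and Sohlh2 (ENSMUSG00000027794) on the plus strand at chr3:54985950-55013879. Dmrt1 (ENSMUSG00000024837) is on the plus strand at chr19:25580108-25678819 and Stra8 (ENSMUSG00000029848) on the plus strand at chr6:34870163-34889342. Reads were counted over exons, and the deposited length of each gene equalled the union of its exons in GENCODE vM1, from 730 bases for Nanos3 to 5831 bases for Kit. Exons of Gfra1, Id4 and Sall4 share 416, 171 and 526 bases with a transcript on the opposite strand, and whether the counting used the strand is not given in the sources used here. The antisense partner of Id4 had at most 17 counts in any mouse and that of Sall4 at most 5, while the partner of Gfra1 was not analysed here.

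As TRF2 is related to the TATA-binding protein, the 250 bases before the start sites of the genes were searched for the TATA box TATAAA on both strands, and for CACGTG, an E box bound by basic helix-loop-helix proteins, which reads the same on both strands. RefSeq promoters of build GRCm38.p6 matched 7 of the 10 genes, and Zbtb16, Sall4 and Dmrt1 had no entry. No TATA box was found in any window of these 7 genes, against 12.4% of 32851 promoter windows that hold at least 1. With so few windows, finding none does not set these genes apart from that share. Sohlh1 alone held the E box, in 3 copies that begin 231, 211 and 192 bases before the start, against 6.02% of windows with at least 1 copy and 0.0609% with 3 or more. The windows are shown for Kit, the only gene of the 10 that passed the test between genotypes, for Stra8, which had the largest fitted difference, and for Sohlh1 with its E boxes in capitals. They are the plus strand of chr5:75574737-75574986 for the first of the start sites listed for Kit, the plus strand of chr6:34920698-34920947 for Stra8 and the minus strand of chr2:25847249-25847498 for Sohlh1. A match of letters is a description and not a site.
Kit: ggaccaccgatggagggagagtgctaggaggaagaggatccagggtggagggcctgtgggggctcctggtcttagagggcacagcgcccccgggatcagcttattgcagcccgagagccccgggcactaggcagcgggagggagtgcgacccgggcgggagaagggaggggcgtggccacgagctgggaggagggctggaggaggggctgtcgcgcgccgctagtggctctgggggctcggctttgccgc
Stra8: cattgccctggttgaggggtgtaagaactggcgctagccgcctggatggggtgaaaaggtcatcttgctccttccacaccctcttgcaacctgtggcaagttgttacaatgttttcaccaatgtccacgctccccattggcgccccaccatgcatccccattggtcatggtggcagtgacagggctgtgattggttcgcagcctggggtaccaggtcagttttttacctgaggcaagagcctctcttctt
Sohlh1: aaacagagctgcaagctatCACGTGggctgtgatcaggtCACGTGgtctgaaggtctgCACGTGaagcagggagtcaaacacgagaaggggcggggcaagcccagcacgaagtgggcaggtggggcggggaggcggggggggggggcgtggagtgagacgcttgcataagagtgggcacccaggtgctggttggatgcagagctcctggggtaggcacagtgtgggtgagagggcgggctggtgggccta

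Per length of transcript, the 10 genes spanned a 38.4-fold range of levels in WT testis. Id4 was the most abundant at 38.9 ± 4.95 CPM per kilobase (SD, n = 3 mice), followed by Dmrt1 at 25.8 ± 0.821 and Stra8 at 17.5 ± 2.03 CPM per kilobase. Sohlh2 stood at 14.2 ± 0.259 and Sohlh1 at 8.40 ± 0.221 CPM per kilobase, so that the transcript of Sohlh2 was the more abundant of the pair. Kit, at 6.74 ± 0.220 CPM per kilobase, came before Zbtb16 at 3.64 ± 0.105 and Sall4 at 2.71 ± 0.263 CPM per kilobase. The lowest levels were those of Nanos3 at 1.81 ± 0.232 and of Gfra1, the stem cell receptor, at 1.01 ± 0.0925 CPM per kilobase. Neighbours in this order did not overlap between mice in WT testis. The order of the 10 means was the same in TRF2-/- testis, where the mice overlapped between Id4 and Dmrt1 and between Nanos3 and Gfra1.

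**Figure D1:**
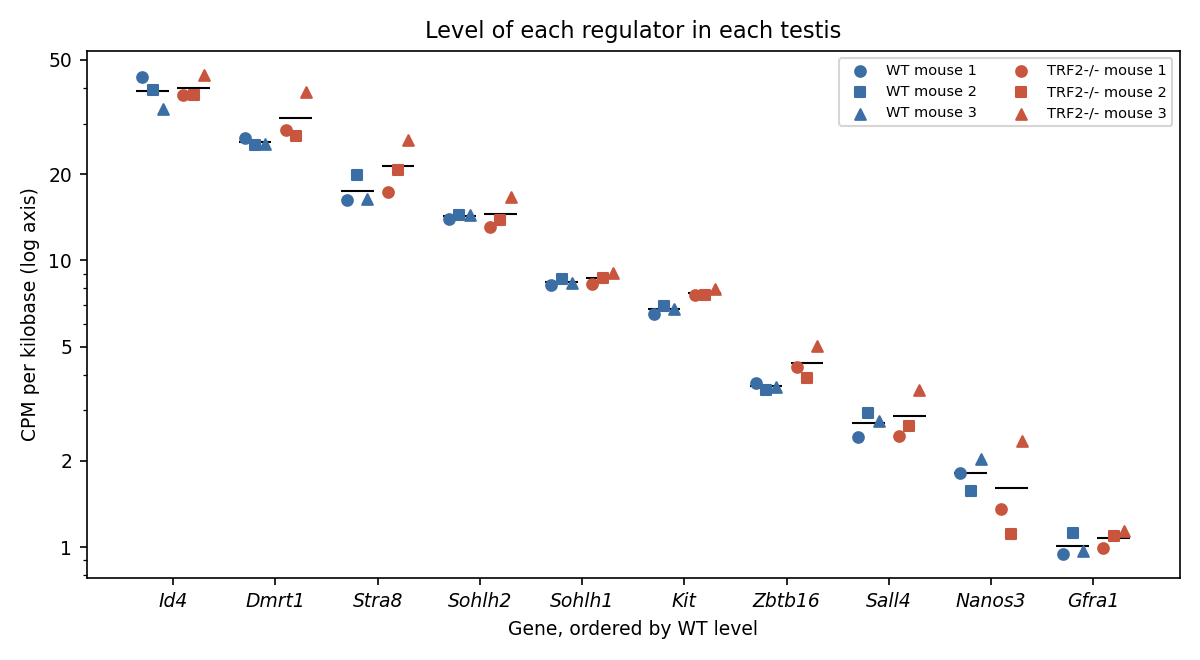
Level of each gene in each testis as CPM per kilobase on a log axis, with genes ordered by their WT mean. Symbols are single mice, WT to the left and TRF2-/- to the right of each position, and bars are the means of 3 mice. The order of the means is the same in both genotypes, from Id4 at 38.9 to Gfra1 at 1.01 CPM per kilobase in WT testis.

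The comparison of TRF2-/- with WT testis asked whether the early germ cell programme differed between genotypes. Kit was the only one of the 10 genes to pass an adjusted p of 0.05 in edgeR's quasi-likelihood test, with a fold change of 1.14 in favour of TRF2-/- testis. This share, 1 of 10, compares with 31.4% of all tested genes, of which 11.2% were higher and 20.2% lower. With scaling by library size alone 25.2% of tested genes were higher, and the share of lower genes among the calls was 38.7% against 64.4% with TMM. None (0) of the 10 changed at least 2-fold in edgeR or in DESeq2, against a background of 4.9%, while 3 had an unadjusted p under 0.05 by either tool, where 43.3% of all tested genes did so in edgeR. For 3 of the 10 genes no WT value lay within the TRF2-/- range or the reverse, against 49.2% of all tested genes. The fitted log2 fold change was above 0 for 9 of the 10 genes, beside 54.9% of all tested genes, and for 6 of the 10 without TRF2-/- mouse 3. Its median was 0.08, beside 0.04 for all tested genes. The median of the 10 genes was 0.033 without TRF2-/- mouse 3, 0.15 without either WT mouse 2 or TRF2-/- mouse 1, and 0.18 with library size alone, where that of all tested genes was 0.13. With all mice and TMM, the median size regardless of sign was 0.14, beside 0.21. In that main fit the 95% intervals excluded a 2-fold change in either direction for all 10 genes. The widest bounds were a fold of 0.543 for Nanos3 and of 1.52 for Stra8. With each mouse left out, the fitted log2 difference of Nanos3 ran from -0.53 to -0.02. The lowest value, without TRF2-/- mouse 3, carried an error of 0.27, which leaves room for a 2-fold fall. For Nanos3 the exclusion thus does not hold in every fit.

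**Figure D2:**
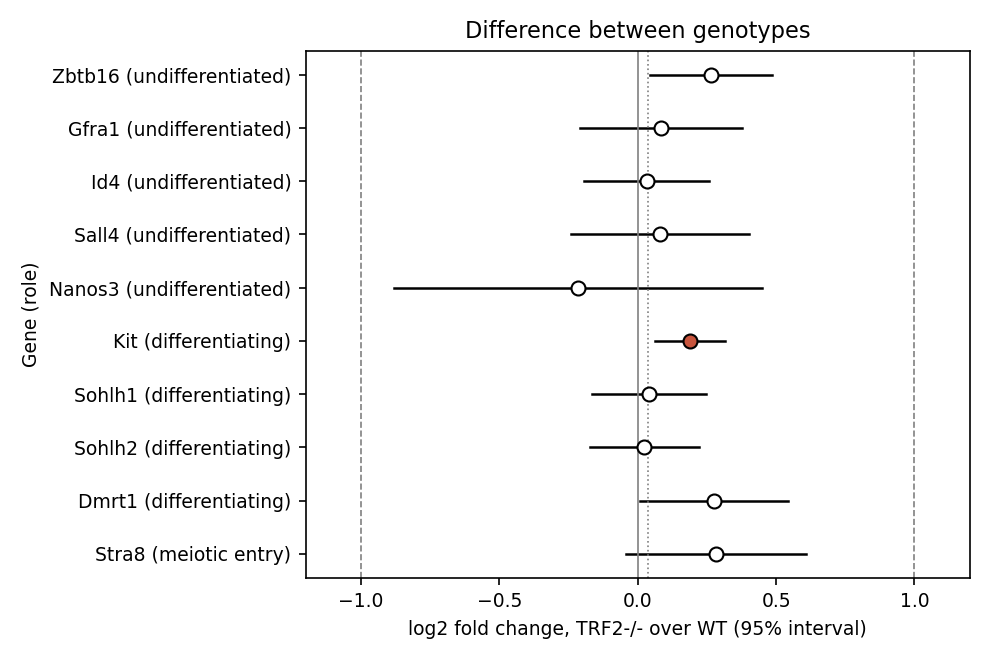
Log2 fold change of TRF2-/- over WT for each gene (points) with its 95% interval (lines), from edgeR's quasi-likelihood fit. The filled point marks the adjusted p under 0.05 of Kit, dashed lines mark a 2-fold change, the solid line 0 and the dotted line the median of all tested genes, 0.04. All 10 intervals lie between the dashed lines and 7 of them include 0.

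Among the genes of undifferentiated spermatogonia, none (0) of 5 passed the adjusted threshold in edgeR or DESeq2, and Zbtb16 alone had an unadjusted p under 0.05 in edgeR. Zbtb16 encodes PLZF, a zinc finger repressor needed for the upkeep of the stem cell pool. It measured 19.1, 18.1 and 18.4 CPM in WT testes, against 21.7, 19.9 and 25.6 CPM in TRF2-/- testes. Each TRF2-/- mouse lay above the WT mice, and mouse 3 was the highest. The log2 fold change was 0.27 (standard error 0.10, 95% interval 0.04 to 0.49, adjusted p = 0.0679 in edgeR). Without TRF2-/- mouse 2 the adjusted p was 0.0316, with a log2 fold change of 0.33, and with library size alone it was 0.0205, with a log2 fold change of 0.36. Without TRF2-/- mouse 3 the log2 fold change was 0.17 with an adjusted p of 0.135 in edgeR, and over the fits that left out 1 mouse the adjusted p ran up to 0.185.

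Gfra1, the receptor subunit that binds GDNF, measured 5.19, 6.13 and 5.33 CPM in WT testes, against 5.44, 6.0 and 6.26 CPM in TRF2-/- testes. The genotypes overlapped, and the log2 fold change was 0.08 (95% interval -0.21 to 0.38, adjusted p = 0.652 in edgeR). Id4, an inhibitor of basic helix-loop-helix factors that marks stem cells and is also made by other testis cells, measured 72.6, 65.0 and 56.2 CPM in WT testes, against 62.6, 62.7 and 73.7 CPM in TRF2-/- testes. The genotypes overlapped and WT mouse 3 lay below the other mice, and the log2 fold change was 0.03 (95% interval -0.19 to 0.26, adjusted p = 0.830 in edgeR).

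Sall4, a zinc finger factor of undifferentiated and early differentiating spermatogonia, measured 13.4, 16.2 and 15.3 CPM in WT testes, against 13.6, 14.7 and 19.5 CPM in TRF2-/- testes. TRF2-/- mouse 3 lay above the WT values and the other two within them, with a log2 fold change of 0.08 (95% interval -0.24 to 0.40, adjusted p = 0.696 in edgeR). Nanos3, an RNA-binding protein of germ cell maintenance, had the fewest reads, with 38, 30 and 31 reads in WT testes, against 25, 19 and 27 reads in TRF2-/- testes. After scaling these were 1.32, 1.15 and 1.49 CPM in WT and 0.992, 0.815 and 1.71 CPM in TRF2-/- testis, so that mutant mice 1 and 2 were below all WT mice and mutant mouse 3 above them. Its log2 fold change of -0.22 had the widest interval of the 10 genes, from -0.88 to 0.45 (adjusted p = 0.60 in edgeR). Without TRF2-/- mouse 3 it was -0.53 (adjusted p = 0.166 in edgeR), still short of the threshold.

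Of the 4 genes of differentiating spermatogonia, Kit rose and Sohlh1, Sohlh2 and Dmrt1 did not pass the threshold. Kit encodes the receptor tyrosine kinase for stem cell factor and is the standard surface marker of differentiating spermatogonia. Leydig cells express it too, and haploid germ cells make a short transcript from within the gene, which counts per gene do not separate. Kit measured 37.9, 40.5 and 39.5 CPM in WT testes, against 44.3, 44.0 and 46.3 CPM in TRF2-/- testes. The genotypes did not overlap and mice of a genotype lay close together. The log2 fold change was 0.19 (standard error 0.06, 95% interval 0.06 to 0.32, adjusted p = 0.0302 in edgeR's quasi-likelihood test). The call was lost without any of the 3 WT mice, without TRF2-/- mouse 1 and without TRF2-/- mouse 2, where the adjusted p ran up to 0.109, although the log2 fold change stayed between 0.16 and 0.21 with each mouse left out. DESeq2's Wald test gave an adjusted p of 0.0801 and edgeR without the filter 0.0517. The summed level of 9 Leydig cell markers was 315 to 491 CPM in WT and 327 to 477 CPM in TRF2-/- testis. Star alone ran from 18.2 to 92.1 CPM among the WT mice, so this sum is imprecise. The median log2 fold change of the 9 markers was 0.22. Past the adjusted threshold 2 of them were higher, where 11.2% of all tested genes were. The part of these markers in the difference of Kit was not tested.

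Sohlh1 and Sohlh2, the basic helix-loop-helix partners of spermatogonial differentiation, were almost level between genotypes. Sohlh1 measured 10.6, 11.1 and 10.7 CPM in WT testes, against 10.7, 11.1 and 11.6 CPM in TRF2-/- testes. Its log2 fold change of 0.04 had an interval from -0.17 to 0.25, which excludes a rise of more than 1.19-fold (adjusted p = 0.765 in edgeR). Sohlh2 measured 32.9, 34.0 and 34.0 CPM in WT testes, against 30.9, 32.8 and 39.3 CPM in TRF2-/- testes. TRF2-/- mice 1 and 2 lay below the WT mice and mouse 3 above them, with a log2 fold change of 0.02 (95% interval -0.17 to 0.22, adjusted p = 0.861 in edgeR).

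Dmrt1, a DM domain factor present in spermatogonia and in Sertoli cells, measured 69.4, 65.5 and 65.9 CPM in WT testes, against 73.7, 70.2 and 99.9 CPM in TRF2-/- testes. The genotypes did not overlap, but TRF2-/- mice 1 and 2 were close to WT mouse 1 and mouse 3 was far above. The log2 fold change was 0.27 (standard error 0.12, 95% interval 0.01 to 0.54, adjusted p = 0.108 in edgeR). Without TRF2-/- mouse 3 it was 0.11, without TRF2-/- mouse 2 it was 0.35 with an adjusted p of 0.0448 in edgeR, with library size alone 0.37 with an adjusted p of 0.0363, and without the filter 0.28 with an adjusted p of 0.0467. Of 11 tested Sertoli cell markers, 5 were higher past the adjusted threshold, where 11.2% of all tested genes were. The 11 markers had a median log2 fold change of 0.19. Their summed level was 1684 to 1814 CPM in WT and 1946 to 2151 CPM in TRF2-/- testis, the top value being that of mouse 3, and their part in the level of Dmrt1 was not tested.

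Stra8, the gene induced by retinoic acid that is required for entry into meiosis, measured 29.3, 35.7 and 29.4 CPM in WT testes, against 31.1, 37.4 and 47.2 CPM in TRF2-/- testes. TRF2-/- mouse 1 lay within the WT values, mouse 2 just above them and mouse 3 well above. The log2 fold change of 0.28 was the largest of the 10 and did not pass the threshold (standard error 0.14, 95% interval -0.04 to 0.61, adjusted p = 0.161 in edgeR). Without TRF2-/- mouse 1 it was 0.40 with an adjusted p of 0.0451 in edgeR, and without TRF2-/- mouse 3 it was 0.13.

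TRF2-/- mouse 3 had the highest level of all 6 mice for each of the 10 genes, whereas it was the highest for 28.9% of all tested genes. With DESeq2's size factors this held for 9 of the 10 genes, and with library size alone for 10, against 24.8% and 36.1% of all tested genes. The rise over the WT mean in this mouse was largest for Stra8 and Dmrt1, at 0.59 and 0.58 on the log2 scale, and smallest for Sohlh1, at 0.10. In TRF2-/- mice 1 and 2 the same quantity was -0.02 and 0.25 for Stra8, 0.14 and 0.07 for Dmrt1 and -0.02 and 0.04 for Sohlh1. The same mouse had the lowest round spermatid markers, with a median log2 ratio to the WT mean of -2.60 over 9 tested genes, against -1.57 and -1.44 in TRF2-/- mice 1 and 2. In mouse 3, 4 of the 9 genes had 0 counts and the median fell on Izumo1 with 3 counts, so the value of -2.60 is imprecise. For 8 pachytene spermatocyte markers the medians were -0.47, -0.40 and -0.85 in TRF2-/- mice 1 to 3. These markers were uneven, with fitted log2 fold changes from -1.63 for Ccna1 to -0.16. In TRF2-/- mice 1 to 3 Ccna1 measured 32.2, 32.4 and 11.0 CPM and Piwil1 619, 602 and 599 CPM. The drop in mouse 3 was thus not shared by all of them. Related genes also had their highest medians in this mouse. The medians in TRF2-/- mice 1 to 3 were 0.01, 0.08 and 0.29 for the other undifferentiated genes, -0.07, -0.02 and 0.31 for the other differentiating genes and 0.08, 0.06 and 0.20 for the genes of early meiosis. The 8 general germ cell genes did not rise in this way, with medians of -0.02, -0.07 and -0.02 in TRF2-/- mice 1 to 3. The rise was not limited to germ cell genes, as Sertoli cell markers had medians of 0.17, 0.20 and 0.32. Retinoic acid genes had medians of 0.09, 0.12 and 0.17, while their summed levels were 891, 921 and 834 CPM in TRF2-/- mice 1 to 3. Medians of the niche signals and of the Leydig, peritubular and macrophage markers were highest in TRF2-/- mouse 1. The medians of the markers of later germ cells, the depth of the library and the level of the 10 genes moved together in TRF2-/- mouse 3. Their part was not tested. This pattern was noticed in the data and is given as a description.

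**Figure D3:**
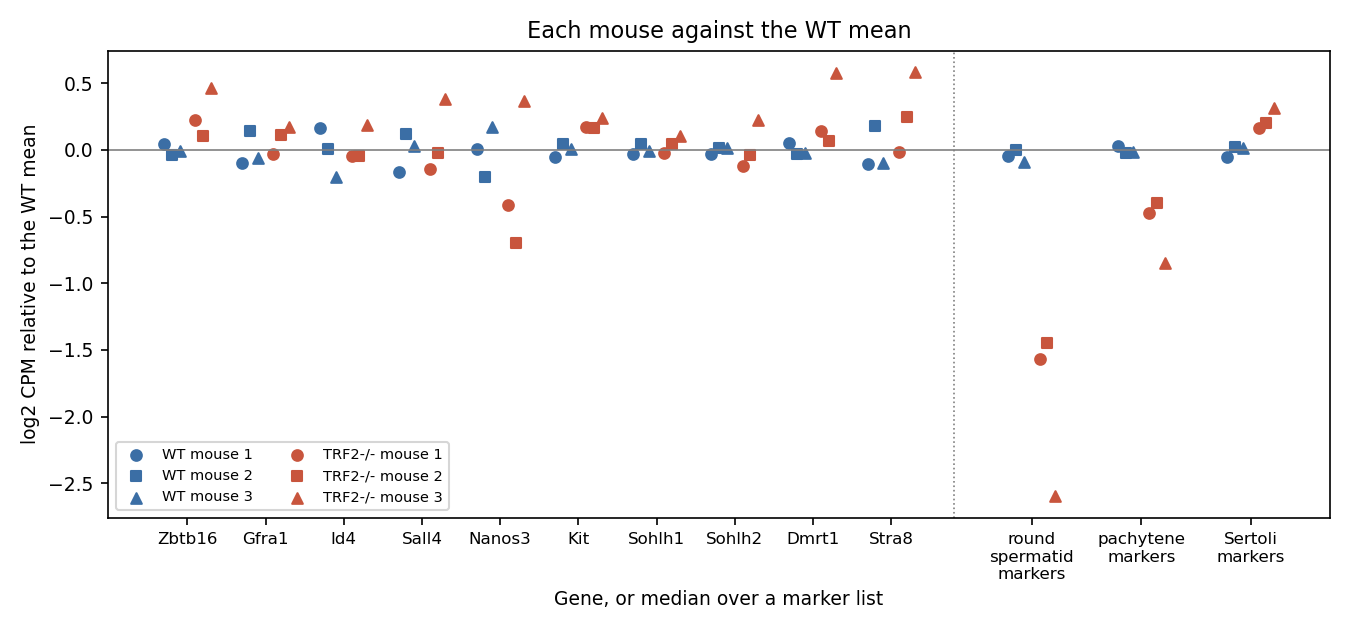
Log2 CPM of each gene in each mouse relative to its WT mean, beside the median of the same quantity over 3 lists of cell type markers. TRF2-/- mouse 3 (red triangles) is the top point for each of the 10 genes and, at -2.60, the bottom point for the round spermatid markers, a median that rests on a gene with 3 counts. It is also the top point for the Sertoli markers, at 0.32.

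Ratios between these genes within a library do not depend on the scaling. The log2 ratio of Kit to Zbtb16 counts, which sets a differentiation marker against a stem cell marker, was 1.08 ± 0.0888 in WT and 1.01 ± 0.146 in TRF2-/- testis (SD, n = 3 mice each). That of Stra8 to Kit was -0.33 ± 0.129 in WT and -0.24 ± 0.269 in TRF2-/- testis, running from -0.51 in mutant mouse 1 to 0.03 in mutant mouse 3. That of Sohlh2 to Sohlh1 was 1.64 ± 0.0254 and 1.62 ± 0.121, and that of Gfra1 to Zbtb16 was -1.74 ± 0.165 and -1.92 ± 0.166. The genotypes overlapped for each of these 4 ratios, which were not tested.

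The surrounding genes of the pathway were taken from lists of genes by function. Of 18 other genes of undifferentiated spermatogonia 13 were tested, and the 3 that passed the adjusted threshold were higher, against 31.4% of all tested genes that passed it. The median log2 fold change was 0.19. Itga6, an integrin subunit used to enrich stem cells, rose from a mean of 55.8 ± 2.01 CPM (SD, n = 3) to 72.6 ± 3.04 CPM (SD, n = 3), or by 0.38 on the log2 scale (adjusted p = 0.00143 in edgeR). Bcl6b, a transcription factor induced by GDNF, rose from 3.59 ± 0.104 to 5.31 ± 0.680 CPM with a log2 fold change of 0.57 (adjusted p = 0.0168 in edgeR), a call lost without WT mouse 1, WT mouse 2 or TRF2-/- mouse 2, at adjusted p of 0.0508, 0.0664 and 0.0614. Neurog3, a marker of progenitors leaving the stem cell state, had 16, 24 and 11 reads in WT testes, against 35, 27 and 32 reads in TRF2-/- testes. Its log2 fold change of 1.14 (adjusted p = 0.0238 in edgeR) lost its call without WT mouse 1 or 3 and without TRF2-/- mouse 1 or 3, where the adjusted p ran up to 0.0970. Etv5, another GDNF target, and Ret, the signalling partner of GFRA1, had log2 fold changes of -0.05 and 0.27 (adjusted p = 0.699 and 0.154 in edgeR).

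Of 11 other genes linked to differentiating spermatogonia, 2 were higher and 1 lower past the adjusted threshold (31.4% of all tested genes passed it), with a median log2 fold change of 0.09. Dmrtb1, a DM domain relative of Dmrt1 that acts at the passage from mitosis to meiosis, was the one that fell. It measured 255, 237 and 253 CPM in WT testes, against 119.5, 141 and 86.8 CPM in TRF2-/- testes. Its lowest value was in TRF2-/- mouse 3. Median log2 ratios of the pachytene markers to the WT mean were -0.47, -0.40 and -0.85 in TRF2-/- mice 1 to 3. For its own list this median was highest in mouse 3, at 0.31. The pachytene markers were uneven, with fitted log2 fold changes from -1.63 to -0.16. The part of later germ cells in the level of Dmrtb1 was not tested. The genotypes lay far apart, with a fitted difference of -1.10 on the log2 scale (standard error 0.14, adjusted p = 0.000866 in edgeR), and it stayed between -1.27 and -0.93 with each mouse left out. Dnmt3a, a DNA methyltransferase, rose with a log2 fold change of 0.26 (adjusted p = 0.0184 in edgeR), a call lost without WT mouse 1, at 0.20 and an adjusted p of 0.0765. Ccnd2, the cyclin D of differentiating spermatogonia, rose by 0.35 on the same scale (adjusted p = 0.0357 in edgeR), a call lost without WT mouse 1, WT mouse 2, TRF2-/- mouse 1 or TRF2-/- mouse 2, where the adjusted p ran from 0.0747 to 0.139 and the difference was as low as 0.23. Mki67, a marker of dividing cells, had a log2 fold change of 0.01 (95% interval -0.16 to 0.17).

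Of 15 genes of early meiosis in the table, 3 were higher and 1 lower past the adjusted threshold, where 11.2% and 20.2% of all tested genes were, with a median log2 fold change of 0.10. Sycp1 and Sycp3, components of the synaptonemal complex, rose with log2 fold changes of 0.29 and 0.24 (adjusted p = 0.00602 and 0.00426 in edgeR). Hormad1, an axis protein, rose by 0.17 and Mei1, a gene of double strand break formation, fell by 0.26 on the log2 scale (adjusted p = 0.0274 and 0.0343 in edgeR). Hormad1 lost its call without any of the WT mice or TRF2-/- mouse 1, with an adjusted p up to 0.131, and Mei1 without any mouse but TRF2-/- mouse 1, with an adjusted p up to 0.145, as well as with library size alone, with DESeq2 and without the filter. Gm4969, which encodes the STRA8 partner MEIOSIN, had a log2 fold change of 0.24 (95% interval 0.04 to 0.44, adjusted p = 0.0724 in edgeR).

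Of the 9 tested signals of the niche, the somatic cells around spermatogonia, 3 passed the adjusted threshold and were higher. Of all tested genes 31.4% passed it, 11.2% higher and 20.2% lower. The niche signals had a median log2 fold change of 0.37. Kitl, the ligand of KIT, rose from a mean of 100.4 ± 7.58 CPM (SD, n = 3) to 124 ± 6.18 CPM (SD, n = 3), or by 0.30 on the log2 scale (adjusted p = 0.00840 in edgeR). Cxcl12, a chemokine that holds stem cells in the niche, rose from 11.0 ± 0.626 to 17.5 ± 1.94 CPM, a log2 fold change of 0.67 (adjusted p = 0.00188 in edgeR). Wnt5a rose by 0.53 on the same scale (adjusted p = 0.0197 in edgeR), a call lost without WT mouse 1, at 0.39 and an adjusted p of 0.0563. Gdnf, the ligand of GFRA1, had 85, 73 and 46 reads in WT testes, against 82, 68 and 65 reads in TRF2-/- testes, with a log2 fold change of 0.34 (95% interval -0.09 to 0.78, adjusted p = 0.197 in edgeR). Of the 8 tested genes of retinoic acid supply and response, 1 passed the adjusted threshold (31.4% of all tested genes did), with a median of 0.15 over the list. Aldh1a2, a retinaldehyde dehydrogenase, fell from 204 ± 5.42 to 175 ± 11.7 CPM, a log2 fold change of -0.22 (adjusted p = 0.0160 in edgeR), a call lost without WT mouse 2, at an adjusted p of 0.0705, and with library size alone, at 0.0844.

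**Figure D4:**
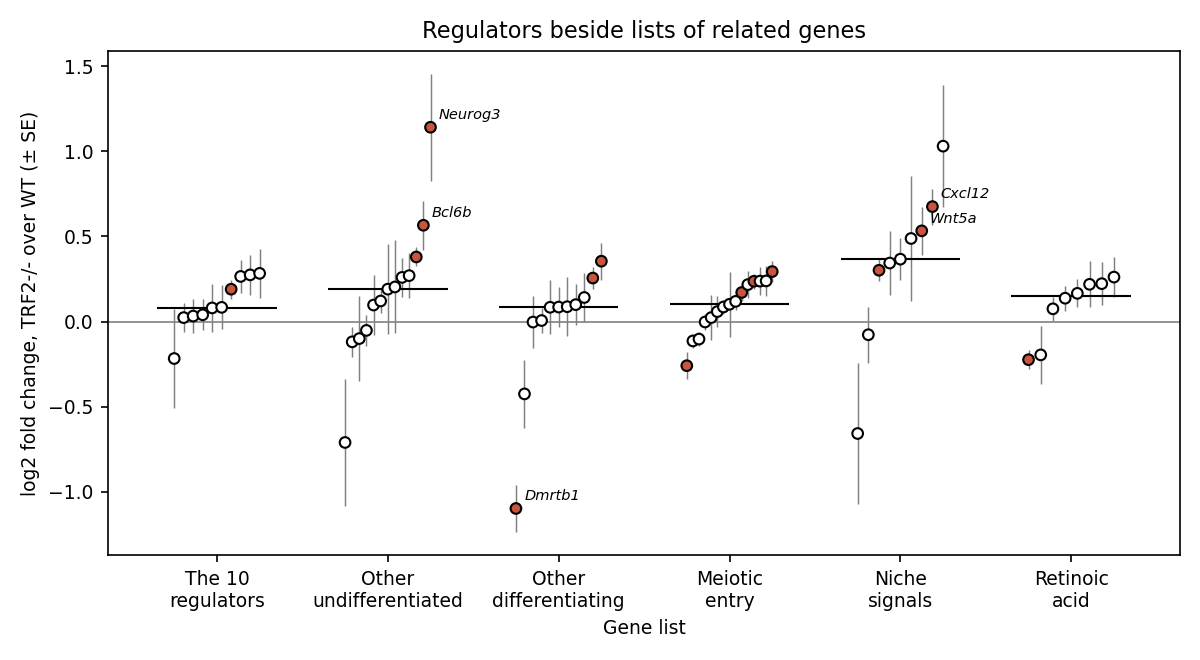
Log2 fold change of TRF2-/- over WT for the 10 genes and for the tested genes of 5 lists of related genes, each point with its standard error. Filled points have an adjusted p under 0.05 in edgeR, bars are medians, and names mark filled points beyond 0.5 in size. The medians run from 0.08 for the 10 genes to 0.37 for the niche signals, and Dmrtb1 at -1.10 lies apart from the other genes of differentiation.

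Lists of cell type markers gave the state of the other cells in these testes. Higher and lower in the counts here mean past the adjusted threshold in edgeR, as 11.2% and 20.2% of all tested genes were. Of 9 tested round spermatid markers 8 were lower by this measure, and the other, Spaca1, had a log2 fold change of -0.22. Their median log2 fold change was -1.57, and their summed level was 121 to 132 CPM in WT and 43.0 to 72.7 CPM in TRF2-/- testis, and Acrv1, Spaca3, Catsper3, Catsper4 and the untested Sun5 had 0 counts in TRF2-/- mouse 3. The most abundant of them, Acr, the gene of the acrosomal protease acrosin, fell from 56.3 to 31.0 CPM, and Ldhc, a lactate dehydrogenase of spermatocytes and the most abundant pachytene marker, from 2279 to 1407 CPM. All 8 pachytene markers were lower past the threshold with a median of -0.56 and a range from -1.63 to -0.16. The general germ cell genes had a median of -0.04 with 1 of 8 higher and 2 lower past the threshold. The most abundant somatic markers were Clu in Sertoli cells, at 1094 CPM in WT and 1275 CPM in TRF2-/- testis, Cyp11a1 in Leydig cells, at 77.0 and 74.0 CPM, Acta2 in peritubular cells, at 167 and 186 CPM, and Mrc1 in macrophages. Mrc1 measured 92.5, 80.1 and 83.9 CPM in WT testes, against 121, 92.0 and 71.8 CPM in TRF2-/- testes, with mutant mouse 3 below the WT mice and a log2 fold change of 0.16 (adjusted p = 0.466 in edgeR). Mael, the highest of the general germ cell genes, stood at 1013 and 787 CPM. Peritubular cell markers had a median of 0.22 with 1 of 5 higher past the threshold, and macrophage markers a median of 0.75 with 5 of 8 higher past it and a summed level of 177 to 200 CPM in WT and 202 to 399 CPM in TRF2-/- testis. Their part in the levels of the 10 regulators was not tested.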

How the data were processed

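Total RNA of whole testes was depleted of ribosomal RNA and sequenced from stranded libraries as single-end reads of 50 bases. The authors aligned the reads to mm9 (NCBIM37) with TopHat and deposited raw counts per gene, 1 column a mouse. The submitters' processing notes name CASAVA 1.8.2, TopHat2 2.0.10, Bowtie2 2.1.0, HTSeq 0.5.4p3 and DESeq2 1.0.19. The annotation release and the strand setting are not given in the sources used here. The table's 12 columns of normalized values were not used. Depth ran from 15187062 to 29859347 counts, and 3 counts equal at most 0.190 CPM, which covers counting error only.

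Genes passing filterByExpr (99.9% of reads) were scaled with TMM and tested with edgeR 4.0.16 in R 4.3.3 (glmQLFit, glmQLFTest, Benjamini-Hochberg over 16924 genes, adjusted p under 0.05). A 2-fold limit was a second rule. Standard errors came from the fold change and the F statistic, and 95% intervals from the t distribution of the fit. CPM per kilobase divides by the deposited gene length. Genes were grouped by the labels, and replicates are 3 independent mice. No replicate pair agreed within sampling noise (chi-square over its degrees of freedom at least 3.32). The 10 genes and the lists were chosen with earlier results of these data known. Text names all 10 genes and, from each list, up to 6 genes with the smallest adjusted p past the threshold, and of each marker list the gene with the highest WT level. Etv5, Ret, Mki67, Gm4969 and Gdnf were added after their values were seen, for their known link to the 10 genes, as were the round spermatid markers at 0 counts. Ccna1 and Piwil1 were also added after their values were seen, to show the spread of the pachytene markers. Alternatives were other scaling, DESeq2 1.42.0, other filters, a replicate block, each mouse left out and an adjusted p of 0.01. Scripts were tested on simulated data. There edgeR called 26% of 50 genes given a log2 change of 0.3 in size, 60% at 0.6 and 92% at 1. The largest fitted difference of the 10 genes was 0.28, so not passing the threshold does not show that a gene was unchanged.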

Additional observations from a re-analysis of the deposited data

How the results depend on the processing

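Of the 120 fitted differences of single regulators under alternatives, 102 kept their direction and their side of the threshold, 6 gained a call, 8 lost one, all 8 of them Kit, and 4 changed sign. The sign changed for Id4 at -0.058 without WT mouse 3 and at -0.04 without TRF2-/- mouse 3, and without TRF2-/- mouse 3 also for Sall4 at -0.075 and Sohlh2 at -0.071, none of which was called. With each mouse left out Id4 ran from -0.058 to 0.12, Sall4 from -0.075 to 0.17 and Sohlh2 from -0.071 to 0.078. The number of regulators called, 1 of 10, was 3 with library size alone (Zbtb16, Kit and Dmrt1), 0 with DESeq2's Wald test, 0 with the replicate block, 0 at an adjusted p of 0.01, and 0 to 2 with each mouse left out. The 5312 calls among all tested genes became 2815 at an adjusted p of 0.01 and 3413 to 5235 with each mouse left out. With library size alone the calls were 5 among other undifferentiated genes, 8 among genes of early meiosis, 5 among niche signals and 3 among retinoic acid genes, while the median of all tested genes moved from 0.04 to 0.13. With each mouse left out they were 1 to 3 among other undifferentiated genes, 1 to 3 among other differentiating genes, 2 to 4 among genes of early meiosis, 2 to 4 among niche signals and 0 to 2 among retinoic acid genes. Scaling by library size alone leaves out the TMM factors, which were 0.962, 0.974 and 0.967 in WT mice 1 to 3. In TRF2-/- mice 1 to 3 they were 1.03, 1.03 and 1.04. Leaving them out raises the fitted log2 fold changes together, that of Kit from 0.19 to 0.28. The cause of the shifts with a mouse left out was not tested. The labels do not say that the replicate numbers pair the mice. Deviations of same-numbered mice correlated at -0.0973, -0.0313 and -0.102, and 0 of 6 mice correlated best with their own number. With 3 mice a genotype this check cannot exclude a pairing. In the fit with the replicate block Kit had an adjusted p of 0.0615 in edgeR, and 27.1% of all tested genes were called. Depth limits Nanos3 most, with 19 to 38 counts a mouse and a 95% interval of -0.88 to 0.45 on the log2 scale.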

Other observations

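The spread between mice of a genotype differed between the regulators. In WT testis the coefficient of variation over 3 mice was lowest for Sohlh2 at 1.82%, Sohlh1 at 2.63%, Zbtb16 at 2.89%, Dmrt1 at 3.18% and Kit at 3.26%, against a median of 6.18% over all tested genes. It was highest for Nanos3 at 12.8% and Id4 at 12.7%. In TRF2-/- testis it was larger than in WT for 7 of the 10 genes and reached 40.3% for Nanos3 and 21.1% for Stra8, against a median of 8.68% over all tested genes. Kit at 2.82% and Sohlh1 at 4.29% had the smallest spread among the TRF2-/- mice. With 3 mice a genotype these values are imprecise and no test was made.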
